A study of Mus musculus with 8 samples.

Results

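Piezo2, Piezo1, Th, Tafa4, Rarres1 and P2ry1 were followed across the 20 cell clusters of a single-cell RNA sequencing study of mouse dorsal root ganglia, the clusters of sensory nerve cell bodies beside the spinal cord. The 6 genes were taken by their symbols from the 9229 genes of the table of cluster markers, and all 6 are in it. Most are known from the nerve cells that sense light touch. Values are given for 84 of the 120 possible pairs of gene and cluster.

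The ganglia came from C57BL/6 mice of 21 to 30 days, with 4 mice pooled per sample. Living cells of all samples were incubated with an anti-β5 antibody, against a proteasome subunit, for 30 min, and then with a fluorescently labelled secondary one for 40 min. Flow sorting gave NMP-positive cells (4 samples) and NMP-negative cells (4 samples), where NMP stands for the neuronal membrane proteasome. The descriptions name the 4 samples of each population as sequencing lanes of 1 library, so there were no replicates, and the table does not say from which population a cell came. The extraction text names a nuclei protocol, and the sources used here do not say whether whole cells or nuclei were used. Every comparison below is therefore a cluster against all other cells of the table, with 1 value per gene and no spread, so neighbours in an order of clusters cannot be separated by an error.

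Light touch is carried by low-threshold mechanoreceptors (LTMRs). Those with thin unmyelinated fibres, the C-LTMRs, respond to gentle stroking of hairy skin and in mice are known for Th, the vesicular glutamate transporter gene Slc17a8 and Tafa4. Piezo2 codes for the mechanically gated channel that converts touch into current in sensory nerve endings, and the related Piezo1 is best known from vessel walls, where it senses blood flow.

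The LTMR cluster, which held 3.93% of all cells, had transcripts of 5 of the 6 genes in nearly all of its cells, and all 5 were higher there. Piezo2, Tafa4 and Rarres1 were each detected in 100% of LTMR cells, P2ry1 in 99.7% and Th in 94.2%, in the authors' deposited table. In all other cells the deposited shares were 38.2% for Piezo2, 11.7% for Tafa4, 24.4% for Rarres1, 6.7% for P2ry1 and 11.9% for Th. By the difference in the share of cells, P2ry1 therefore set LTMR apart by the widest margin, and Piezo2 by the narrowest. By deposited log2 fold change the order was reversed, with Piezo2 the highest of the 5 at 2.54 and P2ry1 the lowest at 1.82. Higher genes made up 12.5% of the whole table in LTMR. Piezo1 had no value in LTMR or Low.UMI.LTMR, so the table does not show it as a touch neuron gene.

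**Figure D1:**
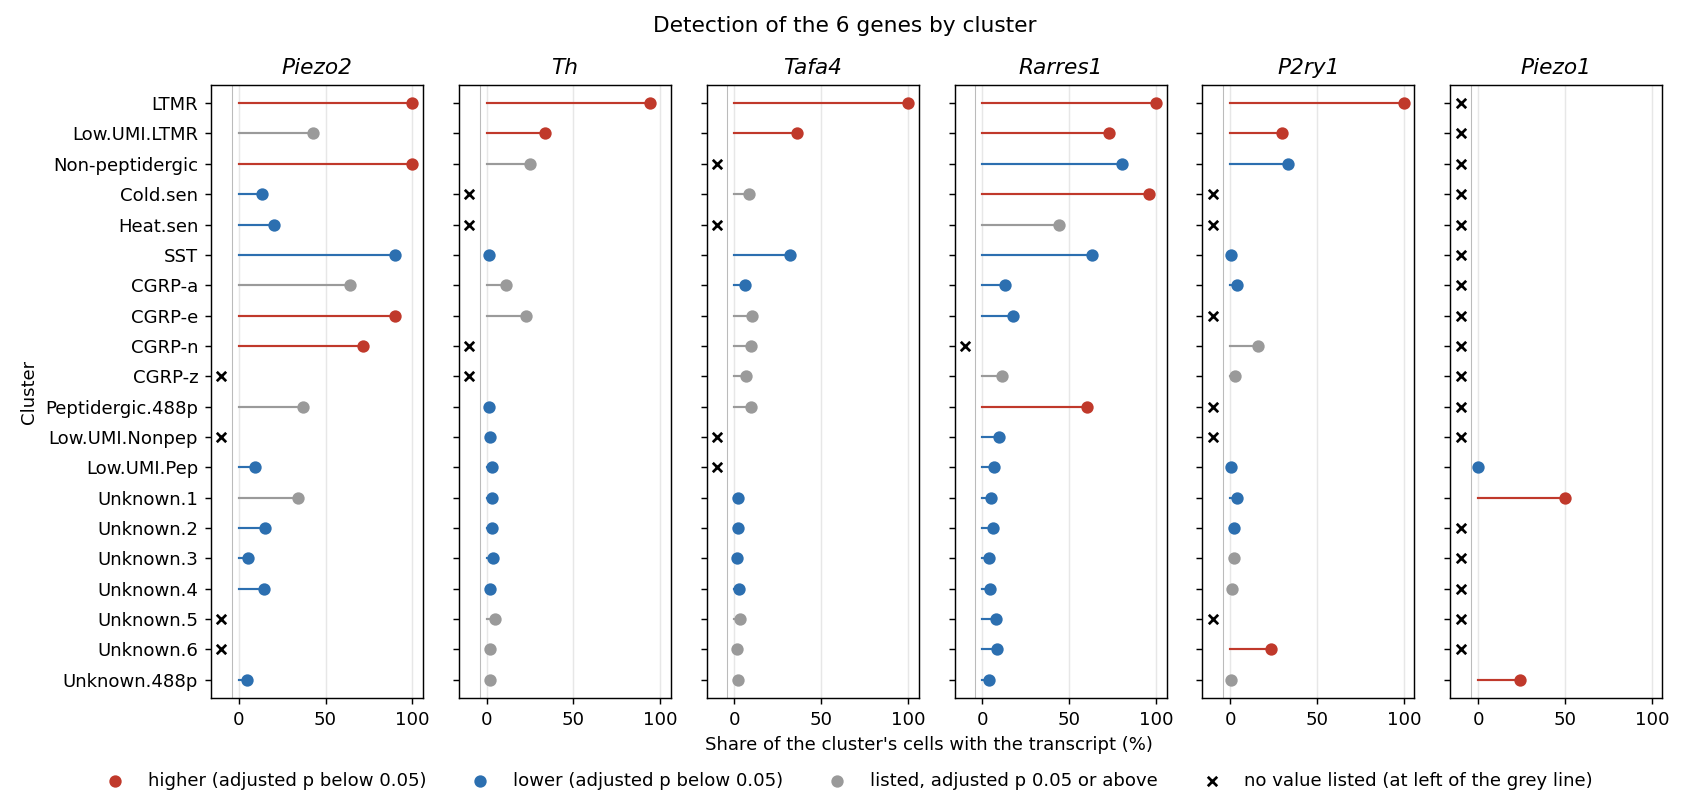
Share of each cluster's cells with a transcript of each gene, in percent, for the 20 clusters from top to bottom. Colours give the deposited filter, and crosses mark clusters without a value. LTMR lies at 94.2 to 100% for 5 genes, and Piezo1 reached 49.7% in Unknown.1.

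The names LTMR and Low.UMI.LTMR were set beside C-LTMR markers other than the 6 genes. Gene lists were chosen with earlier results of these data known, so this is no independent check. LTMR had 3 of 3 of them higher (Slc17a8, Gfra2 and Zfp521). Slc17a8 was in 96.8% of LTMR cells and 3.1% of other cells in the authors' deposited table, and the neurturin receptor gene Gfra2 was in 100% and 20.1%. Gfra2 was also higher in Non-peptidergic, in 98.8% of cells with a deposited log2 fold change of 1.09. Zfp521 was also higher in Cold.sen, in 95.6% of cells, at 1.34 against 1.31 in LTMR. Gfra2 and Zfp521 thus do not single out LTMR. Of the A-fibre neuron markers Nefh, Ntrk3 and Pvalb, Ntrk3 was higher in LTMR, with a deposited share of 100% against 19.5%. Nefh and Pvalb had no value there. Transcripts that mark other cells were also detected in LTMR cells. The satellite glia gene Apoe was in 89.3% of LTMR cells and 49.3% of other cells, the myelin gene Mbp in 98.4% and 30.4%, and the peptide gene Calca in 98.7% and 78.7%, while their deposited log2 fold changes were -5.17, -0.35 and -3.27. Of the 4 mural markers, Rgs5 was higher (99.7% against 8.7% of cells, deposited log2 fold change 1.44) and the other 3 had no value. None of the 4 satellite glia, 4 Schwann, 5 endothelial and 3 peptidergic markers was higher in LTMR, and the fibroblast and macrophage markers had no value there. What depth per cell or RNA from other cells contributes to these shares was not tested.

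Low.UMI.LTMR, a cluster named for few transcript molecules per cell that held 2.92% of all cells, had these genes in fewer of its cells. In it 4 of the 6 genes were higher, where 10.9% of all genes were. Rarres1 was detected in 72.6% of its cells against 26.0% of other cells in the authors' deposited table. Tafa4 was in 36.1% against 14.6%, Th in 33.5% against 14.6% and P2ry1 in 30.0% against 9.8%, in the same deposited table. Piezo2, at 43.0% against 40.5%, had a deposited log2 fold change of 1.44 that was not past the filter. Of the 3 C-LTMR markers that are not among the 6 genes, 0 were higher in Low.UMI.LTMR. Slc17a8 was in 11.3% of its cells against 6.7% of other cells and Gfra2 in 29.1% against 23.0%. Their deposited log2 fold changes were 0.83 and 1.37, against 0.74 and 1.49 in LTMR. Neither gene was past the filter in Low.UMI.LTMR, and Zfp521 had no value. These 3 markers therefore do not decide whether the name holds, while Th and Tafa4, also known from C-LTMRs, were higher. Low.UMI.LTMR is used here only as the name in the deposited table.

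The promoters of the 4 genes that were higher in both LTMR and Low.UMI.LTMR are shown because these genes were high together. Each line gives the 250 bases before the RefSeq transcription start, on the gene's strand, with matches to a searched motif in capitals.
Th (chr7:142899996-142900245, minus strand, GRCm38.p6): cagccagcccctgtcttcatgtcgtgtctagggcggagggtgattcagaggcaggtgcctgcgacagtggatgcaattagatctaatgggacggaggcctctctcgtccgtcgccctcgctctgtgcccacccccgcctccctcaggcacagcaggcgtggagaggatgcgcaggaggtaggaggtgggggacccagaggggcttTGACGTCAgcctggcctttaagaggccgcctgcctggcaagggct
Tafa4 (chr6:97060412-97060661, minus strand, GRCm38.p6): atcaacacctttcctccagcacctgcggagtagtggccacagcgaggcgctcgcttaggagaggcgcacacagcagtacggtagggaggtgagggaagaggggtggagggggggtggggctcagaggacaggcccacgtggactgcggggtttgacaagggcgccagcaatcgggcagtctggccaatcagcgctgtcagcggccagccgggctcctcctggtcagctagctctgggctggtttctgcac
Rarres1 (chr3:67515524-67515773, minus strand, GRCm38.p6): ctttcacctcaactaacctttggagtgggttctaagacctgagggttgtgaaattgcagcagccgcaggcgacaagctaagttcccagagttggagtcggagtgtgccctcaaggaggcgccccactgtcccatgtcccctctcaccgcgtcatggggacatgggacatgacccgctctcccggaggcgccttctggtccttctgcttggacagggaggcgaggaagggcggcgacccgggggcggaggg
P2ry1 (chr3:61002535-61002784, plus strand, GRCm38.p6): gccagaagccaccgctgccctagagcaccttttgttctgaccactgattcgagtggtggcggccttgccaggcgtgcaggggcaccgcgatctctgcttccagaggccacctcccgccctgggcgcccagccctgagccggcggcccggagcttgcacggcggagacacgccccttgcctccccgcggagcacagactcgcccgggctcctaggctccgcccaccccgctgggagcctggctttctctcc
The motifs searched, on both strands, were TGTGGT of Runx factors, the cAMP response element TGACGTCA, the TATA box TATAAA and the homeodomain core TAATTA. Th held TGACGTCA starting 45 bases before the start, and the windows of Tafa4, Rarres1 and P2ry1 held none of these letters. Among 32851 promoter windows of the same length, 1.55% held TGACGTCA, 14% TGTGGT, 12.4% TATAAA and 4.84% TAATTA. The motifs do not overlap in these windows. The GC content was 64.4% for Th, 65.2% for Tafa4, 62.4% for Rarres1 and 70.8% for P2ry1.

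Over all clusters, 17 of the 120 pairs of gene and cluster were higher (10.6% of such pairs for all genes) and 42 were lower (15.9%). The remaining 25 of the 84 listed pairs were not past the filter. Lower genes were far more frequent in some clusters than in others, which bears on how a lower member reads there. In the Unknown clusters they made up 28.8% of all genes for Unknown.1, 27.4% for Unknown.2, 28.4% for Unknown.3, 26.4% for Unknown.4, 20.4% for Unknown.5, 25.5% for Unknown.6 and 33% for Unknown 488p. The share was 21% in Low.UMI.Nonpep, 20.7% in Low.UMI.Pep and 13.8% in Peptidergic 488p, and 7.26% in CGRP-a, 5.65% in CGRP-e and 1.18% in Heat.sen.

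Piezo2, the channel gene, was the most widely detected of the 6, in 40.6% of all cells. It was higher in 4 clusters and lower in 8. Besides LTMR, the deposited table gave it in 100% of Non-peptidergic cells, the Mrgprd-type nociceptors, with a log2 fold change of 1.06 against 2.54 in LTMR. It was in 90.0% of CGRP-e cells (0.39) and 71.8% of CGRP-n cells (0.50), both peptidergic classes, in the deposited table. These 3 nociceptor classes and LTMR were the clusters in which Piezo2 was higher. Of all genes 9.86% were higher in Non-peptidergic, 9.77% in CGRP-e and 9.61% in CGRP-n. It was lowest among the named neuron clusters in Cold.sen, with a deposited share of 13.4% and log2 fold change of -1.52, and in Heat.sen, with 20.4% and -1.46. The cold-sensing and the heat-sensing class thus had fewer Piezo2 cells than all other cells (41.9% and 40.9%). The deposited share was 64.0% in CGRP-a (-0.78), 37.2% in Peptidergic 488p (-0.88) and 34.3% in the endothelial-like Unknown.1 (-0.44), none of them past the filter. In Unknown.2, Unknown.3, Unknown.4 and Unknown 488p, 4.8 to 15.4% of cells had Piezo2 in the deposited table, and it was lower in all 4. Low.UMI.Pep, with a deposited share of 9.3%, was lower as well. CGRP-z, Low.UMI.Nonpep, Unknown.5 and Unknown.6 had no value and averaged 28.3 ± 0.0587% (SD from rounding) of cells with Piezo2.

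Th codes for tyrosine hydroxylase, the rate-limiting enzyme of catecholamine synthesis, and was detected in 15.1% of all cells. It was higher in LTMR (deposited log2 fold change 2.21) and Low.UMI.LTMR (1.98) and lower in 8 clusters. The share of cells was 1.7% in both SST and Peptidergic 488p and 1.8 to 4.7% in the 7 Unknown clusters by the authors' deposited table. Depth per cell is unknown, so these shares were not taken as a background for the neuron clusters. Non-peptidergic had Th in 24.8% of cells and CGRP-e in 23.0% in the deposited table, with log2 fold changes of -0.50 and -0.47 that were not past the filter. CGRP-a had Th in 11.3% of cells, and Low.UMI.Pep and Low.UMI.Nonpep, where it was lower, in 3.3% and 2.2% in the deposited table. Th had no value in Cold.sen, Heat.sen, CGRP-n and CGRP-z. What the listed clusters leave over places Th in 50.7 ± 0.0976% (SD from rounding) of the cells of these 4 clusters on average. They held 36.1% of all cells in which Th was detected, against 24.5% in LTMR and 6.47% in Low.UMI.LTMR. Their mean level was nevertheless 1.02 times that of all cells, where LTMR stood at 4.04 times, both with the added constant. Which of the 4 clusters carried these cells cannot be told apart, and the part of depth per cell was not tested.

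**Figure D2:**
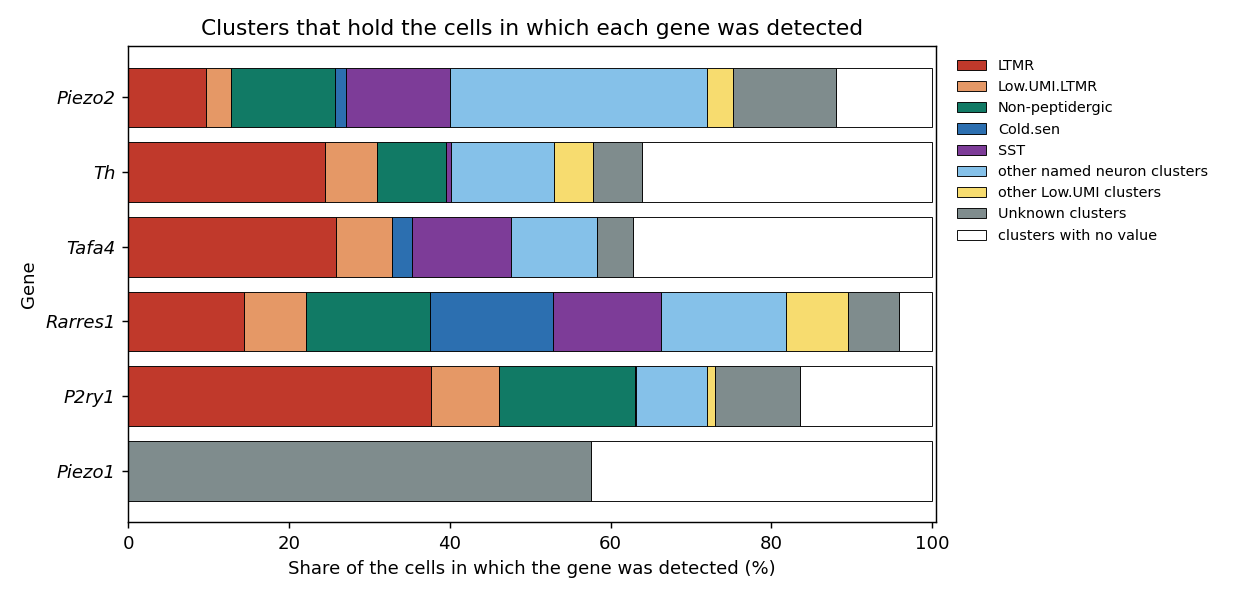
Clusters that hold the cells in which each gene was detected, as shares in percent of those cells, derived from the deposited shares and the cluster weights. The white segment is the sum over clusters without a value, and reaches 36.1% for Th and 42.4% for Piezo1.

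Tafa4 codes for a secreted chemokine-like protein that in mice is made by C-LTMRs and dampens mechanical pain. It was detected in 15.2% of all cells and was higher in LTMR (deposited log2 fold change 2.19) and Low.UMI.LTMR (1.88). LTMR held 25.9% of the cells with Tafa4 and Low.UMI.LTMR 6.95%. In SST, the itch neuron class, Tafa4 was in 31.9% of cells against 14.2% of other cells, while its log2 fold change was -0.43 in the deposited table. In the CGRP clusters, Cold.sen and Peptidergic 488p the deposited share was 6.0 to 10.0%, and in the Unknown clusters 1.4 to 3.2%. Heat.sen, Non-peptidergic, Low.UMI.Nonpep and Low.UMI.Pep had no value, and averaged 17.6 ± 0.0284% (SD from rounding) of cells with Tafa4. These 4 clusters held 37.2% of the cells with Tafa4, at a mean level of 0.914 times that of all cells with the added constant.

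Rarres1 codes for a membrane protein related to the carboxypeptidase inhibitor latexin and was detected in 27.3% of all cells. Among the genes higher in both LTMR and Low.UMI.LTMR it was higher in the most clusters, 4. The deposited log2 fold change was 2.91 in Low.UMI.LTMR, 2.43 in LTMR, 1.61 in Cold.sen and 0.36 in Peptidergic 488p. In Cold.sen it was in 95.6% of cells against 24.2% of other cells in the deposited table. Cold.sen had both cold neuron markers higher (Trpm8 and Foxp2), and of the C-LTMR markers Zfp521 was higher and Gfra2 lower. Of all genes 11% were higher and 5.44% lower in Cold.sen, and 7.05% were higher in Peptidergic 488p. Piezo2 was lower and Tafa4 was not past the filter in Cold.sen, and Th, P2ry1 and Piezo1 had no value there, so among the 6 genes Rarres1 alone was listed as higher. Rarres1 was lower in 13 clusters. In Non-peptidergic and SST its share of cells was nevertheless high, at 80.1% and 62.9% in the deposited table. In the other 11 clusters the deposited share was 17.5% in CGRP-e, 12.8% in CGRP-a, 9.8% in Low.UMI.Nonpep, 7.0% in Low.UMI.Pep and 3.8 to 8.5% in the 7 Unknown clusters. Rarres1 had values in 19 clusters. The remaining one, CGRP-n, follows from the others as 30.1 ± 0.269% (SD from rounding) of cells at 0.475 times the level of all cells with the added constant.

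Lxn, the gene of latexin itself, was higher in the same 4 clusters and in Low.UMI.Nonpep. Its order was another one, with deposited log2 fold changes of 2.71 in Peptidergic 488p, 1.97 in Cold.sen, 1.36 in Low.UMI.LTMR, 1.27 in LTMR and 0.60 in Low.UMI.Nonpep. Rarres1 was lower in Low.UMI.Nonpep, at -0.36 in the deposited table. Of all genes 10.9% were higher in Low.UMI.Nonpep.

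P2ry1 codes for a Gq-coupled receptor of extracellular ADP and was detected in 10.4% of all cells. It was higher in LTMR (deposited log2 fold change 1.82), Low.UMI.LTMR (1.81) and the fibroblast-like Unknown.6 (0.42). LTMR held 37.7% of all cells with P2ry1, a larger part than of the cells with any of the other 4 genes higher there. In Unknown.6, 23.4% of cells had P2ry1, against 0.7 to 3.7% in the other Unknown clusters with a value, in the deposited table, and 7.39% of all genes were higher there. All 4 fibroblast markers were higher and all 5 neuron markers lower in Unknown.6. P2ry1 was nearly missing from SST, with a deposited share of 0.2%. In the CGRP clusters with a value it was in 15.8% of CGRP-n, 3.8% of CGRP-a and 2.8% of CGRP-z cells in the deposited table. The 6 clusters without a value averaged 6.28 ± 0.0378% (SD from rounding). Non-peptidergic cells had it in 33.5% of cells against 9.1% of other cells, with a log2 fold change of -0.29 in the deposited table.

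Piezo1 had values in 3 clusters and was detected in 8.69% of all cells. It was higher in Unknown.1, in 49.7% of cells against 4.6% of other cells with a log2 fold change of 1.28 in the authors' deposited table. Unknown.1 had 5 of 5 endothelial markers higher, among them Flt1, and all 5 neuron markers lower, among them Snap25. Piezo1 was also higher in Unknown 488p, in 24.0% against 8.4% of cells (0.71 in the deposited table), a cluster with 4 of 4 macrophage markers higher. In Low.UMI.Pep it was lower, with a deposited share that rounds to 0.0%, that is, under 0.05% of cells. The 17 clusters without a value averaged 4.92 ± 0.0232% (SD from rounding). Unknown.1 alone held 52.4% of the cells with Piezo1. If the level in Low.UMI.Pep was 0, Piezo1 stood in Unknown.1 at 8.14 times the level of all cells, and 74.6% of its transcript level lay there. Piezo2 and Piezo1 thus had their highest listed levels in different clusters, LTMR for Piezo2 and Unknown.1 for Piezo1. Of all genes 18% were higher in Unknown.1 and 9.91% in Unknown 488p.

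Set on the same denominator, the levels of the touch genes in LTMR ranged from 3.21 to 4.89 times the mean of all cells with the added constant. Piezo2 stood at 4.89 times, Rarres1 at 4.61, Th at 4.04, Tafa4 at 3.99 and P2ry1 at 3.21. The constant, which was assumed, makes these folds too small for genes of low level. Without it, the folds can be no larger than 7.07 for Piezo2, 7.34 for Rarres1, 10.8 for Th, 11.6 for Tafa4 and 11.3 for P2ry1. The order of the 5 genes therefore depends on the constant. LTMR held between 19.2 and 27.8% of the Piezo2 transcript level of all cells, between 15.9 and 42.3% for Th and between 15.7 and 45.4% for Tafa4.

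The levels in LTMR and Low.UMI.LTMR were closer for some genes than for others. On the log2 scale with the constant, LTMR minus Low.UMI.LTMR was 0.92 for Piezo2, 0.23 for Tafa4, 0.15 for Th, -0.03 for P2ry1 and -0.45 for Rarres1. Over the 1494 genes with a value in both clusters the median was 0.01, and the difference was negative for 41.2% of them. The corresponding shares of cells were 100% in LTMR against 43.0% in Low.UMI.LTMR for Piezo2, and 100% against 72.6% for Rarres1, in the deposited table. Rarres1 and P2ry1 thus had no higher mean level in LTMR, although more LTMR cells had them. A negative difference was common among all genes, so its sign alone does not set Rarres1 and P2ry1 apart.

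**Figure D3:**
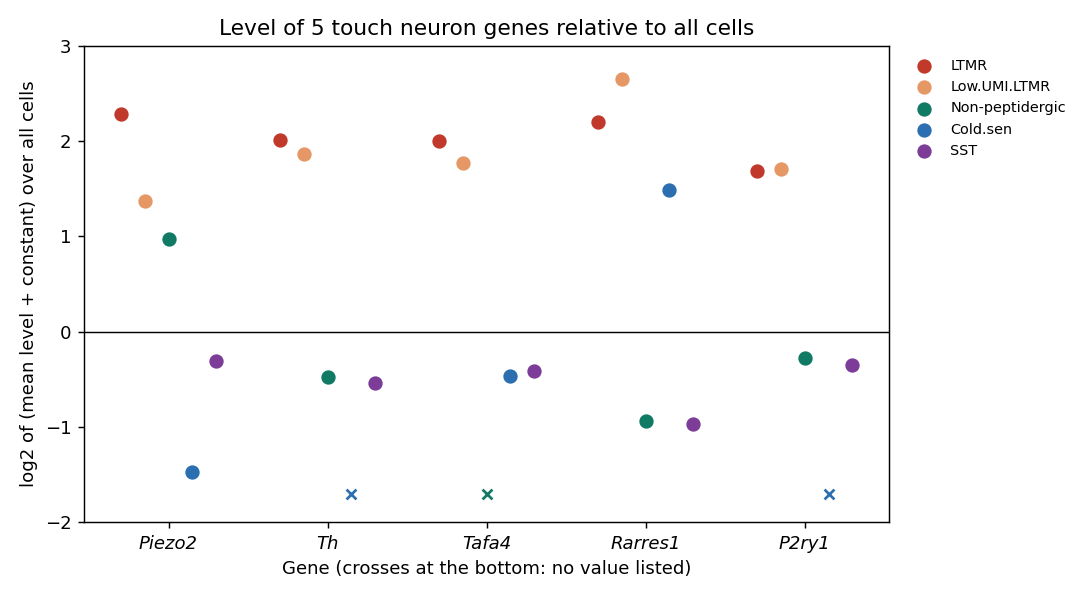
Level of 5 genes in 5 clusters as log2 of the mean level over that of all cells, with the added constant. LTMR and Low.UMI.LTMR lie above 0 for all 5 genes, as do Piezo2 in Non-peptidergic and Rarres1 in Cold.sen.

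Fold change and share of cells pointed in opposite directions in 10 of the 84 pairs (17.1% of all listed pairs of the table). In 5 of these the lower level was past the filter. Rarres1 in Non-peptidergic was in 80.1% of cells against 24.4% of other cells at a deposited log2 fold change of -0.97, and in SST in 62.9% against 25.1% at -1.01. Piezo2 in SST was in 89.8% against 37.5% of cells at -0.32 in the deposited table. The others were Tafa4 in SST and P2ry1 in Non-peptidergic, described above. Of all genes 10.7% were lower in SST and 9.71% in Non-peptidergic. In these 5 pairs the gene was thus found in more cells than elsewhere but at a lower mean level. Opposite directions were no more frequent among the 84 pairs than in the whole table, so they do not set these genes apart. For the 5 pairs past the filter, no share over all genes is at hand. Depth per cell is unknown, and its part in these shares was not tested.

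**Figure D4:**
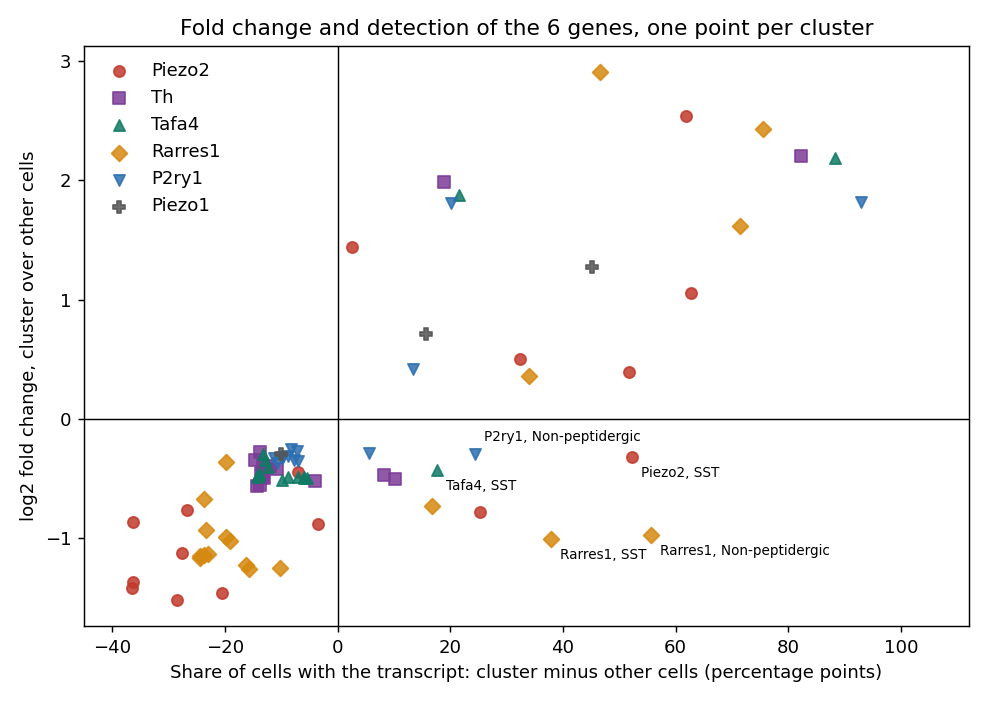
Deposited log2 fold change against the difference in the share of cells, in percentage points, with 1 point per gene and cluster. The 5 labelled points at lower right had more cells with the transcript and a lower mean level, from -0.29 to -1.01 on the log2 scale.

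The other genes of these pathways were followed in LTMR and Low.UMI.LTMR. Of 11 C-fibre touch neuron genes, 5 are among the 6 genes described above. The other 6 were all higher in LTMR, where 12.5% of all genes were. The list was chosen with earlier results of these data known. The potassium channel gene Kcnd3 (2.25 in the deposited table) was among the 4 highest of the 11 in LTMR, with Piezo2, Rarres1 and Th. In Low.UMI.LTMR 4 of these 6 had a value and 1 was higher, the adhesion molecule gene Ceacam10, in 23.9% of cells against 3.6% of other cells in the deposited table (1.87). Of 15 A-fibre genes 11 are in the table. In LTMR Ntrk3 (1.27) and Necab2 (0.48) were higher and Maf and Etv1 lower, at -0.67 and -0.74 in the deposited table, where 8.46% of all genes were lower. In Low.UMI.LTMR 3 were lower and none higher, where 20.1% of all genes were lower and 10.9% higher.

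Of 31 mechanically gated channels and their partners 24 are in the table, and in LTMR 5 were higher and 1 lower. Of all genes 12.5% were higher and 8.46% lower in LTMR, and 10.9% higher and 20.1% lower in Low.UMI.LTMR. No result about the list as a whole is read from its counts. After Piezo2 came the acid-sensing channel subunit gene Asic2 (1.84), the stretch-activated channel gene Tmem63b (0.98) and Stoml1 (0.32) in the deposited table. Tmem150c, whose product has been linked to slowly adapting currents, was at 0.30, and the stomatin gene Stom was lower at -0.38, in the deposited table. In Low.UMI.LTMR none was higher and Stom, Asic2 and Kcnk2 were lower, with Asic2 at -0.41 in the deposited table. Asic2 thus had opposite signs in LTMR and Low.UMI.LTMR.

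Of 22 genes of catecholamine synthesis, transport and breakdown 8 are in the table. The shares of all genes were again 12.5% higher and 8.46% lower in LTMR, and 10.9% higher and 20.1% lower in Low.UMI.LTMR. Beside Th, LTMR had Pcbd1 (0.78), which recycles the tetrahydrobiopterin cofactor, and the breakdown enzyme gene Maoa (0.42) higher in the deposited table. Gch1, which starts the synthesis of that cofactor, was lower at -0.29, in 2.9% of LTMR cells against 16.6% of other cells, and Qdpr was lower at -0.32, in the deposited table. In Low.UMI.LTMR Th and Maoa (0.59) were higher, and Gch1 was lower at -0.30 in the deposited table. Maoa was nevertheless in 19.1% of Low.UMI.LTMR cells against 45.3% of other cells in the deposited table, so its level and share pointed in opposite directions. The enzyme genes Ddc and Dbh and the transporter genes Slc18a2 and Slc6a2 had no value in LTMR or Low.UMI.LTMR.

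Of the Tafa genes, Tafa4 was higher in LTMR and Low.UMI.LTMR, and Tafa1, Tafa2 and Tafa5 were higher in other clusters. Tafa1 was higher in CGRP-n (1.40), Heat.sen (1.29), Unknown.2 (0.95) and CGRP-z (0.37), and Tafa2 in CGRP-n (0.91), CGRP-a (0.40) and CGRP-z (0.27), in the deposited table. Tafa5 led in Unknown.2 (1.50) and Heat.sen (1.45) and was lower in LTMR (-0.30) in the deposited table. Of all genes 12.6% were higher in Heat.sen, 13% in Unknown.2, 12.5% in CGRP-a and 11.3% in CGRP-z. Among genes of Tafa binding partners, Nrxn2 was higher in LTMR (0.52) and Low.UMI.LTMR (0.39, in 19.6% of cells against 46.5%), and Lrp1 was lower in both, in the deposited table. Of the P2Y receptors beside P2ry1, P2ry6 and P2ry12 were higher in the macrophage-like Unknown 488p (0.59 and 0.51) and P2ry12 in the satellite-glia-like Unknown.2 (0.37), in the deposited table. Unknown.2 had 4 of 4 satellite glia markers higher. The ectonucleotidase gene Entpd3 was higher in LTMR (0.47) and Entpd1 lower (-0.58), in the deposited table.

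The genes most like each member were sought by the correlation of the share of cells across clusters, which share cells, library and depth. Wfdc2 was among the first 3 for Th (r = 0.993 over 11 clusters), Tafa4 (r = 0.972 over 11) and P2ry1 (r = 0.995 over 10). Wfdc2 was in 99.4% of LTMR cells against 8.9% of other cells with a log2 fold change of 2.49 in the deposited table. The calcium pump gene Atp2b2 was among the first 3 for Th (r = 0.995 over 14 clusters) and P2ry1 (r = 0.970 over 11), and Th itself was the third for P2ry1 (r = 0.966 over 12). Ccdc68 (r = 0.986 over 14) and Grin1 (r = 0.971 over 11) completed the list for Tafa4. Grin1 had no value in LTMR or Low.UMI.LTMR, so its r leaves out the clusters in which Tafa4 was higher. For Rarres1 they were the transcription factor gene Pou4f1 (r = 0.992 over 10 clusters), Pafah1b3 (r = 0.992 over 10) and Tusc2 (r = 0.990 over 11). Pafah1b3 had no value in LTMR, Low.UMI.LTMR or Cold.sen, where Rarres1 was higher, so its r leaves these clusters out. For Piezo2 they were Vstm5 (r = 0.976 over 10), Ano3 (r = 0.974 over 13) and Rnf11 (r = 0.969 over 10). Piezo1 had too few clusters. The genes found for Piezo2 and Rarres1 were all others when log2 fold changes were correlated.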

How the data were processed

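The values came from 1 table of 20 clusters that pools the cells of all samples, so no value could be assigned to NMP-positive or NMP-negative cells. Per the file headers, the authors' table holds, for every listed gene and cluster, raw and adjusted p-values, the log2 fold change over the other cells, and the fractions, of the cluster's own cells and of the other cells that had a transcript. Fractions are printed as percentages, in which the deposited values step by 0.1. Seurat is named in the submitters' processing notes. The aligner, genome build, cell filters, normalization, clustering settings and doublet treatment are not stated by any source at hand. The deposited table holds no p-value above 0.01, no absolute log2 fold change below 0.25 and no gene under 10% of cells on both sides of a comparison.

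"Higher" and "lower" mean a deposited adjusted p-value below 0.05 and the sign of the log2 fold change. This is a filter and not a test of replicates, since it counts cells and the clusters came from the same cells. The share of all cells in each cluster was solved by least squares over 6748 genes that differed by at least 5 percentage points, with a residual of 0.0256 percentage points. These weights turned each fold change F against other cells into a level relative to all cells, F/(wF + 1 - w), where w is the cluster's share of cells. The deposited fold change was taken as a ratio of mean levels to which a constant had been added. For the 34 genes listed in all 20 clusters the weighted levels summed to between 0.99999 and 1.00014, where this form requires 1. The sum is 1 for any constant and also for none, so it does not show that a constant was added. Piezo1 in Low.UMI.Pep had a log2 fold change of only -0.29 at a share that rounds to 0.0%, a small drop for a ratio without a constant. Since no mean level can be below 0, the lowest cluster of a gene sets a limit on the fold without the constant. Both calculations were tested on simulated data in which the constant was built in. Numbers of cells and depth per cell are unknown, so no interval was attached to any share, and errors given for derived shares cover rounding only.

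The members and gene lists were chosen with earlier results of these data known. The text names the 6 members, up to 4 members of each list higher in LTMR and up to 2 in Low.UMI.LTMR, the 3 genes most like each member, relatives of the members, and Calca, Flt1 and Snap25. Other genes, among them list members that were lower, were named after their values were seen. A few genes that this rule would name are not reported here. Likeness was Pearson's correlation of shares over at least 10 clusters listing both genes. Promoter sequences are from RefSeq (GRCm38.p6). Python 3.11.15, numpy 2.4.6, pandas 2.3.3, scipy 1.17.1 and matplotlib 3.10.9 were used. Alternatives covered the p threshold, a minimum fold, agreement with the share of cells, the weights and the measure of likeness.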

Additional observations from a re-analysis of the deposited data

How the results depend on the processing

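The 17 higher pairs of gene and cluster numbered 12 to 17 under a stricter p, a minimum fold, agreement with the share of cells, and without the Low.UMI clusters, which was chosen after seeing the data. The 42 lower pairs were fewer with an adjusted p-value below 1e-10 (25) or with a minimum log2 fold change of 0.5 (22) or 1 (13), each a stricter rule. With a fold of at least 0.5, the genes higher in LTMR were 1 of the A-fibre list, 1 of the P2Y list and 3 of the mechanically gated list. Of the 3 genes most like each member, a correlation of log2 fold changes found 0 again for Piezo2, 0 for Rarres1, 1 for Tafa4 and 1 for Th. Without the Unknown clusters it was 0 for Piezo2 and 0 for Rarres1, while Th, Tafa4 and P2ry1 had too few clusters for a value. The overall shares and the shares in clusters without a value moved by less than rounding with other weights. No paired analysis was possible because the table has no column for a sample, and no replicate could be left out for the same reason. A missing value can mean a small difference or a rare gene, and was not read as absence.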
